A study of Mus musculus with 16 samples.

Results

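The genes described here are the 4 receptors of the EGFR family and 6 of their ligands, measured in mouse liver after partial hepatectomy, an operation that takes out some lobes and leaves the remnant to regrow. They were chosen by name, as the probe sets annotated to Egfr, Erbb2, Erbb3, Erbb4, Egf, Tgfa, Areg, Hbegf, Btc or Ereg alone. Of the 10 genes, 9 had such a probe set, 20 probe sets in all, among 18193 genes of the array. Areg, which encodes amphiregulin, had none in the annotation used and was not analysed here. All 7 probe sets of Egfr are described, and for each other gene the probe set with the highest mean signal.

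The series held 16 arrays, 1 for each of 4 arms at days 0, 2, 7 and 14. All mice were labelled as having the strain background 129SV/C57BL/6 and the genotype Metff/ff:ERCre+/+. MET_KO_canertinib mice lacked exon 16 of Met, by way of a tamoxifen-inducible recombinase, and ate canertinib at an aim of 80 mg/kg. MET_FLOX_canertinib mice had the diet without the deletion, MET_KO mice the deletion without the diet, and MET_FLOX mice neither. Sex, age, the number of animals behind an array and whether the flox arms received tamoxifen do not appear in the labels. The p-values below thus measure the spread between these arrays.

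The receptors of this family are tyrosine kinases that pair up when a ligand binds. EGFR binds EGF, TGF-alpha, amphiregulin, HB-EGF, betacellulin and epiregulin, while ERBB2 has no ligand of its own and ERBB3 and ERBB4 bind neuregulins. ERBB3 has very weak kinase activity and signals mainly through its partners. The ligands are made as membrane proteins that metalloproteases shed. Hepatocytes carry much EGFR, which drives ERK and PI3K signalling, and EGF reaches the liver largely with the blood, while TGF-alpha is made by hepatocytes themselves. Canertinib is an irreversible inhibitor of the kinases of this family, so it acts on the protein, and the mRNA signals below do not measure that.

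By median signal the arrays fell into 2 sets, for which there is no label. A low set of 6 arrays, with medians of 156.4 to 188.7, held MET_KO and MET_FLOX at days 0, 2 and 7. A high set of 10 arrays, with medians of 244.0 to 265.1, held all canertinib arrays and the day 14 arrays of the other arms. Only at day 14 were arms with and without canertinib measured in the same set, so at the other days the diet and the array set cannot be told apart. The ratio of the Gapdh 3' to 5' control probe sets, a sign of RNA quality, lay between 0.950 and 2.245 under canertinib. Without it the ratio lay between 0.765 and 0.869. At day 14 it was 2.245 in MET_FLOX_canertinib, 1.128 in MET_KO_canertinib and 0.811 in MET_KO and in MET_FLOX. All 10 hepatocyte markers lay above the array median on every array, as the liver label implies. The labels of the Met deletion could not be checked, because nothing used here places the 2 Met probe sets relative to that exon. They gave 98 to 624 and 982 to 2066 in knockout arrays, and 98 to 700 and 1041 to 2014 in flox arrays.

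The sequences before the start sites of 3 of the genes are shown. Egfr was picked for its differences between arms, and Egf and Btc for their difference under canertinib. No link between these sequences and the signals was tested. Each run is the 250 bases before the annotated start, 5′ to 3′ on the gene's strand, from RefSeq on GRCm38.p6. Egfr lies at chr11:16751953-16752202 on the plus strand, Egf at chr3:129755323-129755572 and Btc at chr5:91402995-91403244, both on the minus strand. For Egf the table held 2 start sites and the one shown is the first listed.
Egfr: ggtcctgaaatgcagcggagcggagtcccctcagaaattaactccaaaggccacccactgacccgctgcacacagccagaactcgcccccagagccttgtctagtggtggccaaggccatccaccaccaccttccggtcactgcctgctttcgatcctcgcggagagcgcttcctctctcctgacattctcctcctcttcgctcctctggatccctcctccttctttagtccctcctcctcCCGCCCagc
Egf: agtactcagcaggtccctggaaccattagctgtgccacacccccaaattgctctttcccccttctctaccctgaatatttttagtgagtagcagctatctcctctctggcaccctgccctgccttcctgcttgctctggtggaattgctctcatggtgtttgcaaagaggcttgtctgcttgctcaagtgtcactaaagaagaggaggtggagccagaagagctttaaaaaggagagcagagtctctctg
Btc: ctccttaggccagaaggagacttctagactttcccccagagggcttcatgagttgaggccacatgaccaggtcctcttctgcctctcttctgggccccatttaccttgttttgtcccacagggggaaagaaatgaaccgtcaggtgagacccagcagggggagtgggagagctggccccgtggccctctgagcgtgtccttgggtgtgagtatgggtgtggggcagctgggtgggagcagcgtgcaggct

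The capitals mark the only match, on either strand, to the motifs searched: the GC box GGGCGG, the TATA box TATAAA, the CCAAT box CCAAT, the AP-1 site TGANTCA, the cAMP response element TGACGTCA and the E-box CACGTG. In Egfr a GC box began 9 bases before the start. A GC box was present in 32.7% of 32851 promoter windows of this length, TATAAA in 12.4%, CCAAT in 33.8%, TGANTCA in 6.75%, TGACGTCA in 1.55% and CACGTG in 6.02%. The Egfr window was 60.8% G or C, the Btc window 59.6% and the Egf window 50.4%, beside a median of 52.4% over all windows. A match is a description of these letters only.

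Egfr, the receptor of all 6 ligands, was well above the array median in all arms, and the signal of its brightest probe set spanned the widest ratio between arms at day 0. Values are MAS5 signals, a linear intensity per probe set that can be compared between arrays but not between probe sets. In RNA of whole liver, fewer cells of a type and less RNA per cell cannot be told apart. The brightest probe set, 1435888_at, gave 2764, 6343, 6514 and 7014 in MET_KO_canertinib at days 0, 2, 7 and 14. MET_FLOX_canertinib gave 6964, 4368, 7799 and 12541, MET_KO 11223, 7636, 7706 and 7563, and MET_FLOX 3308, 5516, 7621 and 4415. At day 0 MET_KO_canertinib and MET_FLOX were low and the other arms high. At day 7 the arms lay close together.

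Over the 4 days, Egfr averaged 5659 ± 1950.8 in MET_KO_canertinib, 7918 ± 3410.8 in MET_FLOX_canertinib, 8532 ± 1795 in MET_KO and 5215 ± 1840.2 in MET_FLOX (SD over days, n = 4 each). MET_KO was thus the highest, followed by MET_FLOX_canertinib, MET_KO_canertinib and MET_FLOX, and each step in this order was smaller than the larger SD of its pair. No pair of arms was called. Differences were tested with limma on log2(signal + 16), with arm and day as terms, and called at a Benjamini-Hochberg adjusted p under 0.05 over 13575 genes. The filter on low signals, which asked for 4 arrays above their own median, was passed by 6 of the 9 genes, namely Egfr, Erbb3, Egf, Tgfa, Hbegf and Btc. Only these 6 enter the counts of calls. MET_KO exceeded MET_FLOX in Egfr by 0.75 on the log2 scale (SE 0.32), with a 95% interval of 0.06 to 1.45, but it was not called. The signal was higher on 4 of 4 days, though close at day 7, at 7706 and 7621. The share of all genes higher on 4 of 4 days was not counted. The genotype by canertinib interaction of Egfr was -1.23 (SE 0.46), with a 95% interval of -2.21 to -0.24, and was not called either. Averaged over the passing Egfr probe sets, the same quantities were 0.36 and -0.36, and without the MET_KO day 0 array the first was 0.44. MET_KO minus MET_FLOX was 0.75 in 1424932_at, 0.44 in 1451530_at and 0.39 in 1460420_a_at. In 1432647_at and 1454313_at it was -0.10 and -0.09, and none was called.

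**Figure D1:**
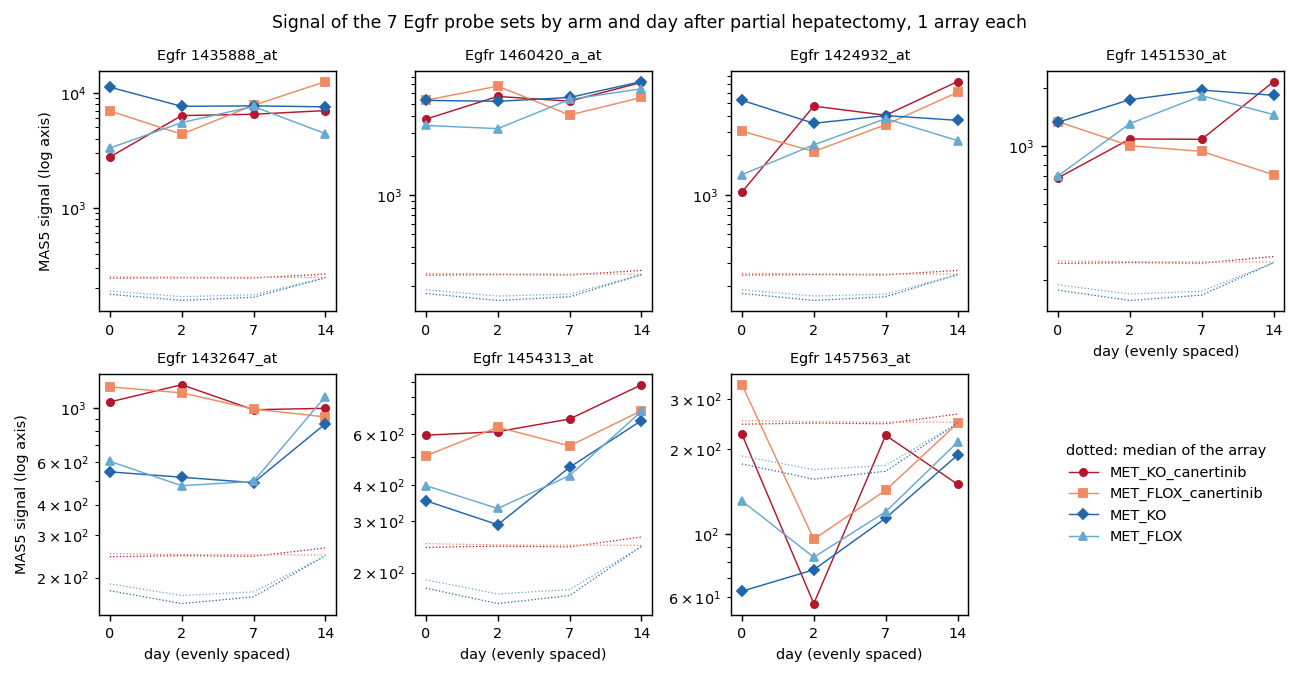
Signal of the 7 Egfr probe sets (log axis) by day after partial hepatectomy, with 1 point per array, an arm per colour and the array's median dotted. In 1435888_at and 1424932_at MET_KO_canertinib and MET_FLOX start low at day 0, while in 1432647_at and 1454313_at the 6 arrays of the low set lie below all others.

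The Egfr probe sets did not all tell the same story. Probe set 1424932_at followed the brightest in its order at day 0, with 1050 in MET_KO_canertinib, 3057 in MET_FLOX_canertinib, 5261 in MET_KO and 1424 in MET_FLOX. At day 14 it gave 7312, 6049, 3702 and 2593 in the same arms, so that both canertinib arrays were above both others. In 1451530_at the day 0 signals were 682, 1340, 1331 and 699 in that order of arms, which again places MET_KO_canertinib and MET_FLOX low. Probe set 1460420_a_at moved less, from 3215 to 7359 over all arrays, and had its lowest day 0 signals, 3799 and 3400, in MET_KO_canertinib and MET_FLOX as well. Thus 4 probe sets shared the day 0 order of low and high arms. They measure the same RNA, so they are not replicates of it.

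In 2 of the other Egfr probe sets the array sets did not overlap. In 1432647_at the high set gave 860 to 1244 and the low set 478 to 602, without overlap. In 1454313_at the high set gave 504 to 884 and the low set 292 to 460. Probe set 1457563_at, at 57 to 336 in the high set and 63 to 131 in the low set, overlapped and did not pass the filter, with 1 array above its median. Among the 14 of the family's 20 probe sets that passed, 5 lay higher on every high-set array than on any low-set array, and of all 22315 probe sets that passed this held for 10.5%. These 5 were the 2 Egfr probe sets above, Egf, Btc 1435541_at and Hbegf 1418350_at.

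Between the diets, the probe set that stands for Egfr did not differ beyond error. It was 2764 to 12541 with a median of 6739 under canertinib, and 3308 to 11223 with a median of 7592 without it. The log2 difference was -0.05 (SE 0.23), with a 95% interval of -0.54 to 0.45, and its sign changed with the processing. At probe set level 2 of the 6 tested Egfr probe sets were called higher, 1432647_at by 0.79 (SE 0.17, limma adjusted p = 0.00479) and 1454313_at by 0.53 (SE 0.14, adjusted p = 0.0111), where 34.3% of all probe sets were called. With the array set as a term they differed by -0.03 and 0.20, and none of the 6 was called, where 0.466% of all probe sets were. At day 14, inside a single array set, the mean canertinib difference was 0.70 for 1435888_at and 1.098 for 1424932_at, but -0.40 for 1451530_at and -0.12 for 1460420_a_at. These values are also the estimates with the array set as a term, and none was called. There 1435888_at had an SE of 0.41 and 1424932_at an SE of 0.51 (limma adjusted p = 0.379). The MET_FLOX_canertinib day 14 array, which gave the 12541 of 1435888_at, also had the highest Gapdh ratio, at 2.245.

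Erbb3, the receptor with little kinase activity of its own, was above the median on all 16 arrays and had its lowest signal at day 2 in 3 of 4 arms. Its signals at days 0, 2, 7 and 14 were 3748, 3378, 2933 and 4266 in MET_KO_canertinib and 3741, 2204, 2890 and 3440 in MET_FLOX_canertinib. MET_KO gave 4733, 2634, 4622 and 3910, and MET_FLOX 4767, 2074, 3964 and 3263. Day 2 lay below day 0 in 4 of 4 arms, which 12.6% of all genes did. The 4 day 2 signals lay under all 4 day 0 signals, and the smallest gap was that of MET_KO_canertinib. The share of all genes with such a separation was not counted.

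Day 2 minus day 0, Erbb3 changed by -0.15 in MET_KO_canertinib, -0.76 in MET_FLOX_canertinib, -0.84 in MET_KO and -1.19 in MET_FLOX on the log2 scale, each 1 array against 1. Over the 4 arms the difference was -0.74 (SE 0.18), with a 95% interval of -1.13 to -0.34, and was not called (limma adjusted p = 0.144). Without the MET_KO_canertinib day 2 array it was -0.90 and called (limma adjusted p = 0.0251), in a fit with fewer arrays. The arm of that array had the smallest drop, so leaving it out makes the estimate larger. The share of all genes called in that fit is not given here. Adding the array set to the model left the difference over the 4 arms at -0.74 (limma adjusted p = 0.0936). In each arm the day 0 and day 2 arrays lay in the same array set, so this estimate could not change. Its value there is thus no separate check. The other Erbb3 probe set lay between 26 and 138, under the median of its array in all 16.

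**Figure D2:**
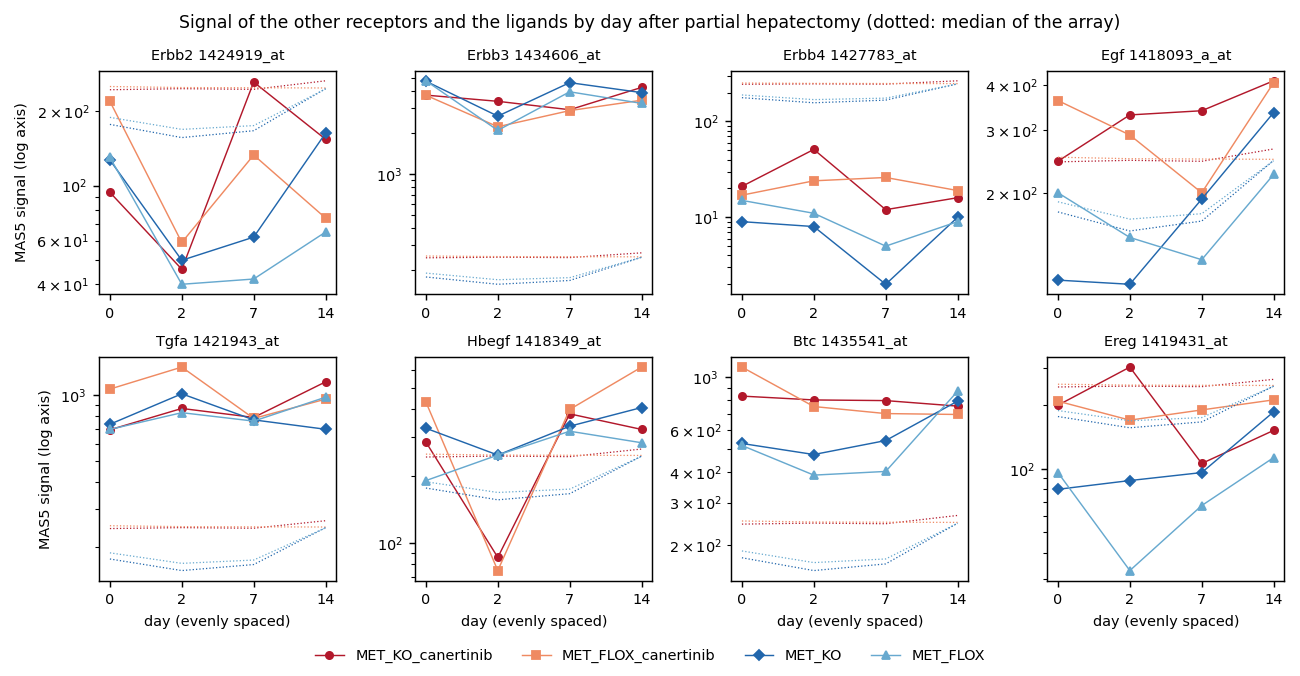
Signal of the other 3 receptors and 5 ligands (log axis) by day after partial hepatectomy, with 1 point per array and the array's median dotted. Erbb3, Tgfa and Btc lie above the medians throughout, while Erbb4 lies below them on all arrays and Erbb2 and Ereg on all but 1.

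Erbb2 and Erbb4 were at the low end of the array in these livers. Erbb2, the ligandless partner of the family, gave 94, 46, 262 and 154 in MET_KO_canertinib at days 0, 2, 7 and 14 and 219, 59, 133 and 74 in MET_FLOX_canertinib. It gave 127, 50, 62 and 163 in MET_KO and 130, 40, 42 and 65 in MET_FLOX. Day 2 was the lowest day in each arm, but only 1 of the 16 signals was above its array's median. In the model without a filter its day 2 difference was -1.24 (SE 0.44, limma adjusted p = 0.353). Erbb4, a receptor of neuregulins, gave 2 to 51 over the arrays, always under the median. At such signals the size of a log2 difference depends on the added 16.

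Among the ligands, Egf and Btc were higher in the canertinib arms. Egf, the founding ligand of EGFR, gave 245, 330, 339 and 411 in MET_KO_canertinib and 362, 290, 200 and 406 in MET_FLOX_canertinib at days 0, 2, 7 and 14. It gave 114, 111, 192 and 335 in MET_KO and 200, 150, 130 and 225 in MET_FLOX. Each of the 8 canertinib arrays was above the array of the same genotype and day without the drug, as in 8.47% of all genes. The groups as a whole overlapped, at 200 to 411 and 111 to 335. Egf was above the array median on 10 of 16 arrays. Under canertinib these were all but MET_FLOX_canertinib at day 7. Without it they were MET_KO at days 7 and 14 and MET_FLOX at day 0. The 4 arrays asked for by the filter were thus not reached without the canertinib arrays. The log2 difference was 0.82 (SE 0.22, limma adjusted p = 0.0132), with an exact two-sided permutation p of 0.001543, unadjusted, the smallest that allocations of arm labels within days can give, in a family of 18 such tests.

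Btc, betacellulin, which binds EGFR and ERBB4, gave 831, 801, 796 and 755 in MET_KO_canertinib and 1097, 752, 703 and 697 in MET_FLOX_canertinib. It gave 528, 475, 543 and 792 in MET_KO and 518, 390, 404 and 871 in MET_FLOX. At days 0, 2 and 7 each canertinib array exceeded both others of its day, and at day 14 the order turned round. The difference over all days was 0.54 (SE 0.16, limma adjusted p = 0.0222), with an exact permutation p of 0.0108, unadjusted. It was not called without the MET_KO_canertinib day 2 array (adjusted p = 0.0517), the MET_FLOX_canertinib day 0 array (0.053) or the MET_FLOX day 2 (0.0542) or day 7 array (0.0532).

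These were the 2 members called of 6 tested, against 34.6% of all genes in the same comparison (24% higher and 10.6% lower), so their share was near that of the whole array. The median difference was 0.09 over the 6 genes and 0.14 over all genes. With the array set as a term Egf differed by 0.54 (SE 0.41, limma adjusted p = 0.657) and Btc by -0.19 (SE 0.22, adjusted p = 0.791), and no member was called, where 0.11% of all genes were. Centring each array on its median placed the median difference of all genes at -0.24, and the share of higher among the genes called was then 18.7%, against 69.3% before it. Centring lowers the canertinib difference of every gene by the same amount. After it Egf differed by 0.44 and Btc by 0.16, neither called, and Erbb3 was called lower at -0.52 (limma adjusted p = 0.0172). By day, the mean canertinib difference of Egf was 0.91, 1.17, 0.67 and 0.54 at days 0, 2, 7 and 14, and that of Btc 0.85, 0.83, 0.66 and -0.19. The median over all genes was 0.13, 0.24, 0.17 and 0.01 at the same days. The part of the array set and of RNA quality in these differences was not tested beyond these values.

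**Figure D3:**
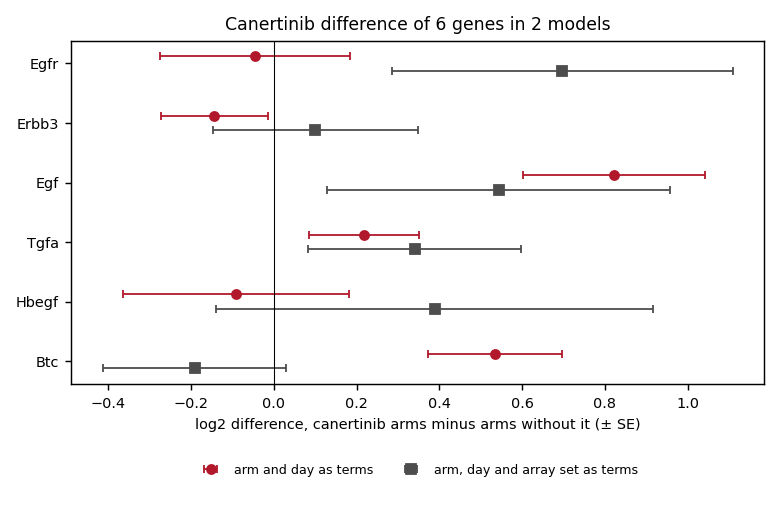
Log2 difference of the canertinib arms minus the arms without it (points, bars ± SE) for the 6 genes tested, with arm and day as terms (red) and with the array set added (grey). Egf and Btc lie above 0 in the first model, at 0.82 and 0.54. In the second, where the errors are wider, Egf lies above 0 at 0.54 and Btc below it at -0.19.

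Tgfa, the ligand that hepatocytes make, was above the median on all 16 arrays and moved little in its brightest probe set. Its brightest probe set, 1421943_at, gave 694, 870, 791 and 1153 in MET_KO_canertinib and 1068, 1348, 783 and 960 in MET_FLOX_canertinib. It gave 736, 1016, 771 and 698 in MET_KO and 697, 832, 761 and 980 in MET_FLOX. Day 2 was above day 0 in 4 of 4 arms, by 0.25 to 0.46, and over the arms by 0.34 (SE 0.19, limma adjusted p = 0.569). Between the diets it differed by 0.22 (SE 0.13), with a 95% interval of -0.07 to 0.50. Another Tgfa probe set, 1450421_at, was called higher under canertinib at 0.48 (SE 0.15, adjusted p = 0.0296), and differed by 0.14 with the array set as a term. Day 2 minus day 0, 1450421_at changed by -0.03, -0.05, 0.22 and -0.03 in MET_KO_canertinib, MET_FLOX_canertinib, MET_KO and MET_FLOX. The remaining probe set, 1421942_s_at, spanned 197 to 939 over the arrays and changed by -0.16, -1.16, -0.51 and 0.99. The shared direction of 1421943_at was thus seen in neither. The share of all genes higher at day 2 in 4 of 4 arms was not counted. Between the diets 1421942_s_at differed by 0.32 (SE 0.27), and by -0.64 with the array set as a term, neither called.

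Hbegf, the heparin-binding ligand of EGFR and ERBB4, had 2 probe sets of similar brightness that disagreed. In 1418349_at the signals at days 0, 2, 7 and 14 were 285, 86, 382 and 325 in MET_KO_canertinib and 432, 75, 400 and 621 in MET_FLOX_canertinib. They were 329, 249, 336 and 408 in MET_KO and 191, 249, 319 and 283 in MET_FLOX. The day 2 arrays of both canertinib arms were thus the lowest of the 16, under their array medians. In 1418350_at the same arms gave 283, 381, 335 and 436, then 335, 266, 504 and 511, then 181, 201, 171 and 412, and last 165, 179, 178 and 227.

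The day 2 drop of 1418349_at under canertinib, of -1.56 in MET_KO_canertinib and -2.30 in MET_FLOX_canertinib, against -0.38 in MET_KO and 0.36 in MET_FLOX, stood beside changes of 0.41, -0.32, 0.14 and 0.11 in 1418350_at. Over the 4 arms day 2 minus day 0 was -0.97 (SE 0.39, limma adjusted p = 0.372) in the first and 0.08 in the second. The canertinib difference was -0.09 (SE 0.27) in 1418349_at, with a 95% interval of -0.67 to 0.49. In 1418350_at it was 0.81 (SE 0.18, adjusted p = 0.00625), and 0.60 (SE 0.34, adjusted p = 0.498) with the array set as a term. No value here shows which of the 2 follows the transcript.

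Ereg, epiregulin, lay under the array median on 15 of 16 arrays, with 200, 303, 106 and 152 in MET_KO_canertinib, 209, 170, 190 and 212 in MET_FLOX_canertinib, 80, 88, 96 and 186 in MET_KO and 96, 33, 67 and 113 in MET_FLOX. Every high-set array, at 106 to 303, lay above every low-set array, at 33 to 96. The share of probe sets that did so without the filter was not counted. Without the filter Ereg differed by 0.96 (limma adjusted p = 0.022) and Erbb4 by 0.64 (adjusted p = 0.0202) between the diets, with exact permutation p-values of 0.00463 and 0.001543, unadjusted. Erbb4 rests on signals near the foot of the scale, and its array sets overlapped, at 9 to 51 and 2 to 15. Ereg rests on signals mostly under the array median, with the array sets apart as given above. At day 14, inside a single array set, the mean canertinib difference of Ereg was 0.28, against 1.19 over days 0, 2 and 7. For Erbb4 the same values were 0.40 and 0.72. The share of all genes called without the filter is not given here. The other Btc probe set gave 24 to 149, always under the median.

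**Figure D4:**
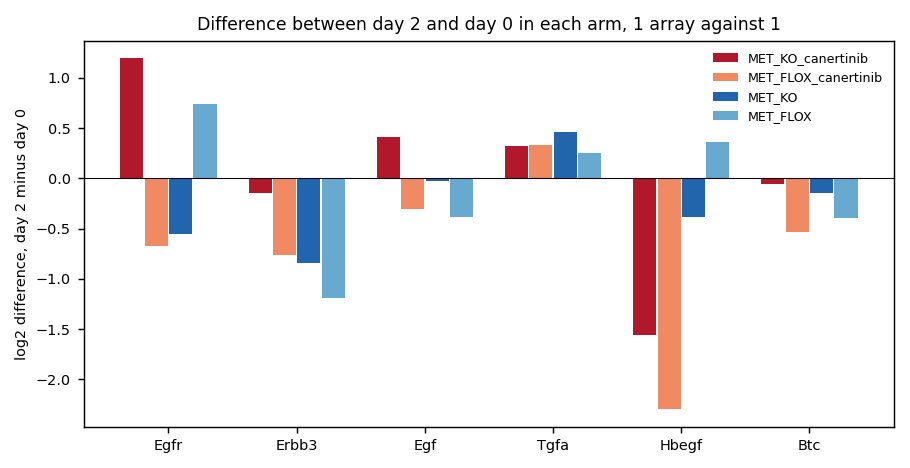
Log2 difference of day 2 minus day 0 in each arm (bars, 1 array against 1, no error available) for the 6 genes that passed the filter. Erbb3 and Btc lie below 0 and Tgfa above 0 in 4 of 4 arms, while Egfr is above 0 in MET_KO_canertinib and MET_FLOX and below it in the others.

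Days and genotypes gave no call among the members. For day 2 against day 0, 0 of 6 were called with limma, with 2 at an unadjusted p under 0.05, where 0.413% of all genes were called. For days 7 and 14 it was 0 of 6, with 0 at an unadjusted p under 0.05 in each, and 0.00737% and 0.081% of all genes called. Egfr had no shared direction at day 2, since it changed by 1.19 in MET_KO_canertinib, -0.67 in MET_FLOX_canertinib, -0.55 in MET_KO and 0.73 in MET_FLOX. The knockout arms against the flox arms called 0 of 6 with 0 at an unadjusted p under 0.05, and 0% of all genes. The interaction called 0 of 6, with Egfr the 1 at an unadjusted p under 0.05, and 0.0147% of all genes. At an unadjusted p under 0.05, all 13575 genes gave 1428 for day 2, 664 for day 7 and 2237 for day 14. For the knockout and interaction comparisons they gave 323 and 599.

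Single pairs of arms called no member with limma either. The counts at an unadjusted p under 0.05 were 2 of 6 for MET_FLOX_canertinib against MET_FLOX, 1 for MET_KO_canertinib against MET_KO, 2 for MET_KO_canertinib against MET_FLOX, 1 for MET_KO against MET_FLOX and 0 for MET_KO_canertinib against MET_FLOX_canertinib. Of all genes, 6.79%, 8.34%, 2.91%, 0% and 0% were called in the same order. At an unadjusted p under 0.05 there were 4136, 4349, 3790, 349 and 609 of all 13575 genes, again in that order. These comparisons share arms. Btc was called in MET_FLOX_canertinib against MET_FLOX without the day 14 array of either arm, at 0.80 and 0.83. Egf was called in MET_KO_canertinib against MET_KO without the MET_KO day 14 array, at 1.06. Only at day 14 did the diets share an array set, so these fits lean more on days where diet and set cannot be told apart. At day 14 itself Btc differed by -0.31 in the flox pair and Egf by 0.28 in the knockout pair. The share of all genes called in these fits is not given here.

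Genes around the receptors were taken from 5 lists, chosen by function with earlier results of these data known. The lists are described by counts in the canertinib comparison, where 34.6% of all genes were called and their median was 0.14. Of the other EGF family ligands, 3 of 5 were tested and 2 were higher. Nrg2, a neuregulin, was 431 to 635 in canertinib arrays and 217 to 402 in the others, without overlap (0.94, SE 0.15, limma adjusted p = 0.00221), which 0.722% of genes showed in this direction. Nrg4, a neuregulin that binds ERBB4, was 466 to 1083 against 114 to 505 (1.04, SE 0.21, adjusted p = 0.00458). Both were also called with centred and with quantile normalized arrays, and at day 14 both were 0.71 higher. Epgn, epigen, had 30 to 499 against 82 to 328 and was not called, at 0.17 here and -0.21 with centred arrays.

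In the list of ligand shedding and trafficking, 7 of 7 were tested, with 1 higher, 1 lower and a median of -0.21. Adam12, a metalloprotease that can shed HB-EGF, was 198 to 1134 under canertinib against 97 to 444 (1.18, SE 0.33, limma adjusted p = 0.0167). Frmd8, which stabilises the sheddase complex, was 783 to 1629 against 1050 to 2255 (-0.35, adjusted p = 0.0369). Adam17, the main sheddase of these ligands, was 221 to 770 against 328 to 699 and was not called.

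Of genes of receptor turnover and inhibition, 14 of 15 were tested, with 2 higher, 1 lower and a median of 0.07. Lrig2, a membrane protein with leucine-rich repeats, differed by 0.77 (SE 0.19) and Socs5, a suppressor of cytokine and EGFR signalling, by 0.44. Stam, which sorts receptors for breakdown, was lower at 335 to 549 against 500 to 940 (-0.64, SE 0.14, limma adjusted p = 0.00506), on 8 of 8 pairs of arrays. Of adaptors and kinases 21 of 26 were tested, with 4 higher, 4 lower and a median of -0.04. Braf, a kinase that activates MEK, was higher by 0.60 (SE 0.11) and Pik3r1, the regulatory subunit of PI3K, by 1.08 (SE 0.25). Gab1, a docking protein, was higher by 0.57, and Grb2, the adaptor that links the receptors to RAS, differed by -0.56 (SE 0.15). With centred arrays Stam, Pik3r1 and Grb2 were still called, at -1.02, 0.70 and -0.94, while Braf was 0.22 and Gab1 0.19, neither called. Centring lowers the canertinib difference of every gene by the same amount. Stam and Grb2, already lower, could thus only move further from 0, so their calls are no separate check.

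Among ERK feedback and early target genes 17 of 20 were tested and 3 were higher under canertinib, with a median of 0.35. They were Etv5, a transcription factor (0.76, SE 0.19), and the feedback inhibitors Spry1 (0.51, SE 0.13) and Spry4 (0.54, SE 0.20). With centred arrays they were 0.38, 0.13 and 0.16, and none was called. Ccnd1, the cyclin that growth factors induce, was the only gene of the 5 lists called in a day comparison, at 1.87 for day 2 against day 0 (SE 0.28, limma adjusted p = 0.0127). In the knockout and interaction comparisons 0 of the 62 list genes tested were called with limma, with 3 and 4 at an unadjusted p under 0.05. Once the array set was a term, no list gene was called under canertinib. Braf then differed by 0.74 and Grb2 by -0.69, on the same side as before, while Pik3r1 differed by -0.23 and Spry4 by -0.26.

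The 3 genes whose pattern over the 16 arrays was most like that of Egfr, by Pearson's r of log2 signals among genes that passed the filter, were Zmym5 (r 0.808, Spearman's rho 0.826), Ercc1 (0.796 and 0.688), a DNA repair nuclease subunit, and Rnf2 (0.782 and 0.753), a ubiquitin ligase of chromatin. Within the 10 arrays of the high set r was 0.716, 0.770 and 0.730. For Tgfa, the ligand of highest mean signal, they were Get4 (0.839 and 0.826), Srrm4 (0.813 and 0.770) and Pop4 (0.804 and 0.850). These were picked as the highest of all genes and are a description, and the points share arms, days and array sets.

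Markers of other cells were summed over the genes measured. The summed signal of 8 neutrophil markers was 3972 to 46153 under canertinib and 2144 to 6270 without it, and that of 6 lymphocyte markers 3352 to 5064 against 1266 to 4110. The 8 Kupffer cell and macrophage markers summed to 13096 to 61785 against 11021 to 43269, 8 endothelial markers to 5028 to 9972 against 7015 to 10168, and 10 hepatocyte markers to 361683 to 664240 against 184392 to 460204. The cholangiocyte and progenitor markers summed to 1036 to 2060 against 820 to 1667, with none of 7 above the median on every array, and the stellate cell markers to 5653 to 9955 against 6087 to 9615. Pancreatic acinar markers summed to 2555 to 4006 against 2148 to 5342, and adipocyte markers to 1041 to 2111 against 566 to 1646. The part of these cells in the differences of Egf and Btc was not tested.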

How the data were processed

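The authors deposited 1 MAS5 signal intensity per probe set for each of 16 arrays, on a linear scale, and MAS5 is named in the submitters' processing notes. Per the labels, biotinylated cRNA was made from 6 ug of total RNA. Trimmed by 2% at each end, the mean of every array was 500, so the values had been scaled. The MAS5 version and detection calls were not used here. The number of arrays limits the precision.

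Of 45101 probe sets, 64 controls, 932 of several genes and 9160 of no listed gene were left out, and 34945 remained. After adding 16 and taking log2, 22315 passed a filter of 4 arrays above their own median. The probe set of highest mean stood for each of 13575 genes. Arms and days were compared with limma 3.58.1 (R 4.3.3, intensity trend, 9 residual degrees of freedom), and single members by exact permutation, whose p-values are unadjusted. Alternatives were the pseudocount, filter, scaling, array set, trend, averaged probe sets and each array left out. Named genes were the members, up to 4 called genes with the smallest p per list (or the 2 of highest mean), the 3 genes most like Egfr and Tgfa, and Epgn and Adam17, which were added after their values were seen. The members and lists were chosen with earlier results of these data known.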

Additional observations from a re-analysis of the deposited data

Results flagged for a closer look

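In an arm of 4 arrays, an array was marked where its gap to the nearest other exceeded Dixon's 95% critical share of the arm's log2 range. Of 80 such checks over 20 probe sets and 4 arms, 4 were marked, and chance marks about 1 in 20. Egfr 1435888_at was marked at day 0 in MET_KO_canertinib, at a low signal of 2764, and at day 0 in MET_KO, at a high signal of 11223. Tgfa 1450421_at was marked at day 14 in MET_KO_canertinib, at 1331. Btc 1435541_at was marked at day 0 in MET_FLOX_canertinib, at 1097. The arrays of an arm differ in day, so a marked array is also a marked day.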

How the results depend on the processing

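The count of members called under canertinib was 2. It was 4 with no filter, 1 with each array centred on its median, and 1 to 2 with single arrays left out. With quantile normalized arrays and with an array set term it was 0. It stayed at 2 with a pseudocount of 1 or 64, with no intensity trend and with averaged probe sets. Of all 13575 genes, 4701 were called with arm and day as terms, 5046 after centring, 2904 after quantile normalization and 15 with an array set term. For the other settings the count over all genes is not given here. The Egfr probe sets called were 2, then 1 with quantile normalized arrays, 0 with an array set term and 2 to 3 with single arrays left out. With single arrays left out the count of members was 0 to 1 for MET_FLOX_canertinib against MET_FLOX, for MET_KO_canertinib against MET_KO and for day 2 against day 0. Several canertinib differences changed sign, and the cause was not tested. With quantile normalized arrays Erbb3 was 0.13 and Egfr 0.21. With an array set term Egfr was 0.70, Hbegf 0.39, Erbb3 0.10 and Btc -0.19, the last also at day 14 alone. With averaged probe sets Egfr was 0.17 and Hbegf 0.36, and with centred arrays Tgfa was -0.16. With single arrays left out Egfr was -0.17 to 0.11 and Hbegf -0.21 to 0.12. Canertinib estimates with the array set term rest on the 4 arrays of day 14, 1 of which had the highest Gapdh ratio, at 2.245. Of the 18 permutation tests 4 had an unadjusted exact p under 0.05 (Erbb4, Egf, Btc and Ereg, all for canertinib). After centring 3 had one, namely Erbb3 and Egf at 0.01852 each and Ereg at 0.02623, while Btc was at 0.1759 and Erbb4 at 0.05556. The other comparisons kept a count of 0 under the alternatives run. With 1 array per arm and day, the spread among livers of 1 arm on 1 day has no measure.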

Other observations

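The day 2 changes of Erbb3 and Ccnd1 can be set side by side by arm, each as 1 array against 1. Ccnd1, the cyclin of the G1 phase, changed by 0.81 in MET_KO_canertinib, 2.10 in MET_FLOX_canertinib, 2.80 in MET_KO and 1.79 in MET_FLOX on the log2 scale. Erbb3 changed by -0.15, -0.76, -0.84 and -1.19 in the same arms. Both changes were smallest in size in MET_KO_canertinib, the arm with both the deletion and the diet. This was noticed in the data and was not tested, since the arm has a single day 2 array.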
